A study of Mus musculus with 6 samples.

Results

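The cholesterol and fatty acid synthesis genes are 40 genes chosen by symbol: regulators of the sterol regulatory element binding proteins (SREBPs), the enzymes from mevalonate to cholesterol, and the enzymes that make, desaturate and elongate fatty acids. All 40 were found among the 20624 genes measured by RNA sequencing in mDCT15 cells, a mouse cell line labelled as distal convoluted tubule, the kidney segment that follows the thick ascending limb. The study compared 3 wild type samples with 3 Pkd1-/- samples, in which Pkd1, the gene for polycystin-1, had been disrupted by CRISPR-Cas9 editing. The genotype field of the labels calls the second group a PKD1 knockdown, while the titles call it Pkd1-/-. Both groups shared the line and, for routine culture, a medium with fetal bovine serum, which itself supplies lipids. For the collection of extracellular vesicles the cells were kept in serum-depleted medium, and the methods do not state the medium at RNA harvest. Whether the edited cells were 1 clone is not given in the sources used here. The expression values used here were pooled by the authors over all 6 samples, so each gene has 1 value for both genotypes together. The genotypes were therefore not compared, no spread between samples or depth per sample was measured, and the order of the levels below carries no error.

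SREBPs are transcription factors made as precursors in the membrane of the endoplasmic reticulum. When sterols are scarce, Scap escorts them to the Golgi, where proteases free the part that enters the nucleus, and Insig proteins hold Scap back when sterols are plentiful. In the nucleus SREBPs bind sterol regulatory elements, usually beside sites for NF-Y (the CCAAT box) and Sp1 (the GC box), and switch on cholesterol and fatty acid synthesis. In kidney tubule cells the products serve as membrane lipids, and cholesterol and sphingolipids are prominent in the membranes of extracellular vesicles, whose release was the subject of the study.

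Several members have near-identical copies elsewhere in the genome, and the following coding stretches of 90 bases (GRCm39) show how such copies bear on the values. Capitals mark bases that differ between the sequences of a pair. Idi1 (exon 5, chr13:8940466-8940555, plus strand) and its processed pseudogene Idi1-ps1 (chr2:53586249-53586338, minus strand) had 0 mismatches.
Idi1: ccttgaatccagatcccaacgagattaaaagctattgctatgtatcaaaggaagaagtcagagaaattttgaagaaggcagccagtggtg
Idi1-ps1: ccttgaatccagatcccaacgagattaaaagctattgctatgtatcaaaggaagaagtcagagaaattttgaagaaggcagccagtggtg
Fdps (exon 10, chr3:89001007-89001096, minus strand) and the transcribed processed pseudogene Gm3571 (chr10:93615435-93615524, plus strand) had 1 mismatch.
Fdps: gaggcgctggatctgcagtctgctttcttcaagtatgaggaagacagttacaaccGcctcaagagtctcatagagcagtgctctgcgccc
Gm3571: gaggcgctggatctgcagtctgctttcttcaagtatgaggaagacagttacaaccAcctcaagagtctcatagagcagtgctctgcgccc
The paralogs Scd2 (exon 2, chr19:44283439-44283528, plus strand) and Scd1 (chr19:44395023-44395112, minus strand) are shown because Scd2 had by far the higher level of the 2. They had 17 mismatches in 90 bases. Their longest identical run within the stretch was 21 bases, against reads of 42 bases. This run ends at the edge of the stretch and may be longer in the genes. Over the canonical transcripts, 3.79% of the stretches of 42 bases in Scd2 and 6.04% of those in Scd1 also occurred elsewhere in the genome.
Scd2: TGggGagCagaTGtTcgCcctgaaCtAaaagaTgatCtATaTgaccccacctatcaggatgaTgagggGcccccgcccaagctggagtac
Scd1: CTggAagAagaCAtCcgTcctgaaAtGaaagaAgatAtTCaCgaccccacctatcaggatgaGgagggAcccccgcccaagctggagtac

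The members sat high in the range of expression. Their median mean normalized count, which is a read count divided by a size factor per library and averaged over the samples, was 2902. It was 104.5 for all genes and 474 for protein-coding genes, to which all 40 members belong. A count of at least 1000 was reached by 31 members (77.5%), compared with 20.9% of all genes and 31.0% of protein-coding genes. A count of at least 5000 was reached by 13 members (32.5%), compared with 2.21% of all genes and 3.24% of protein-coding genes. To compare genes, each count was divided by the length of the union of the gene's exons and given as its parts in 1000000 (ppm) of the sum over genes, which is the level used below. The members were chosen by name, so these shares describe them and were not tested. The median level was 170 ppm for the members, 10.02 ppm for all genes and 25.4 ppm for protein-coding genes. By level, 39 of the 40 members were above the median of all genes, 30 were in the upper quartile (above 45.8 ppm), 22 were in the highest 10% (above 109 ppm) and 4 were in the highest 1% (above 553 ppm). The last 4 were Scd2, Fads1, Hmgcs1 and Fasn, of which Fasn, at 556 ppm, was close to the limit. With the canonical transcript as the length, Fasn ranked 10 of the 40 members and Acly ranked 2. The level of a gene depends on which length divides its count, so some orders below turn with another length. Several such turns are named with their values, and others may be unnamed. Acacb was the only member under the median. Together the 40 members held 1.09% of the summed level of all genes.

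**Figure D1:**
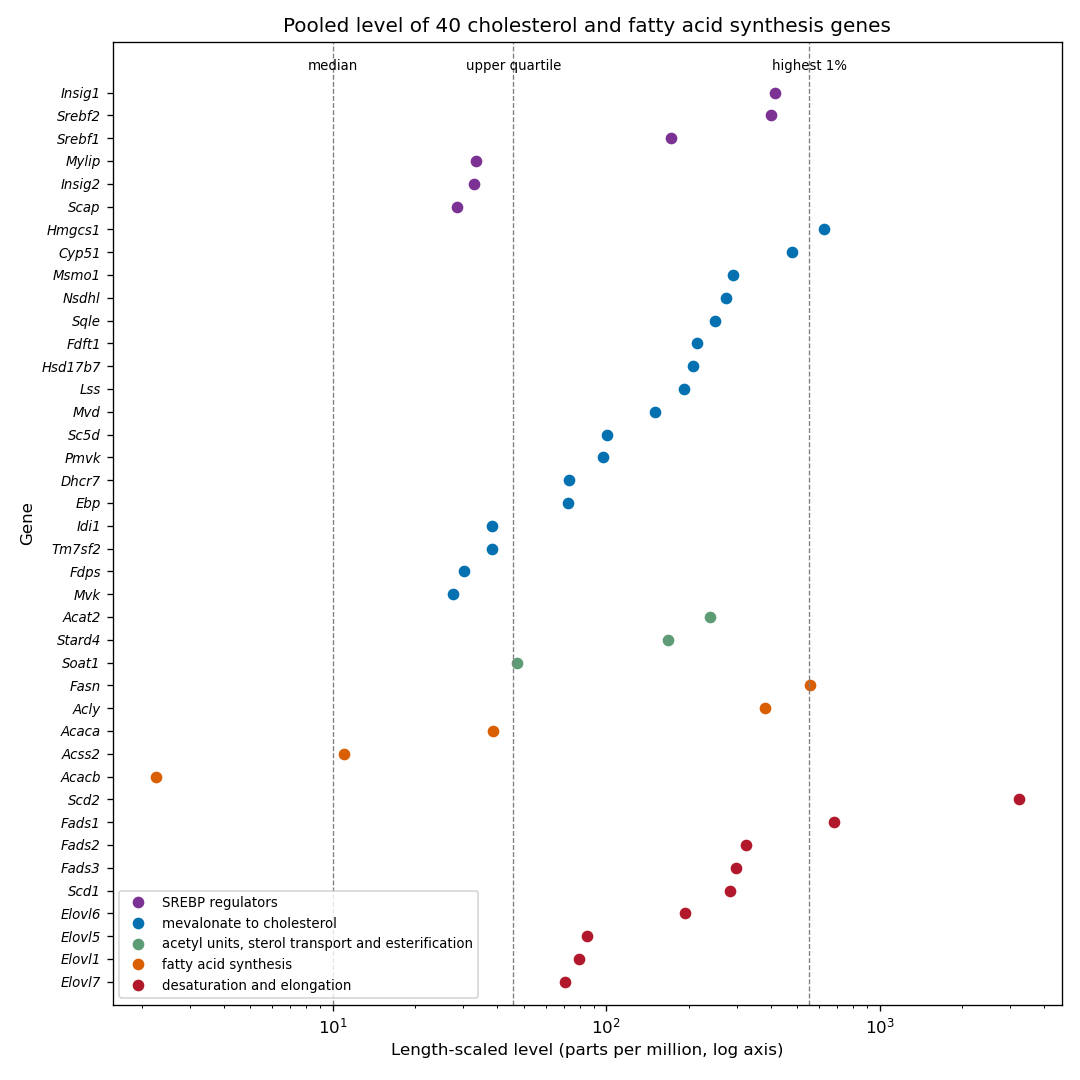
Length-scaled level of each of the 40 genes in ppm (horizontal log axis), grouped and coloured by role, as 1 point per gene from the authors' mean over 6 samples, so that no error bars can be drawn. Dashed lines give the median, the upper quartile and the 99% point of all genes (10.02, 45.8 and 553 ppm), and Scd2 stands alone at 3226 ppm.

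Among the SREBPs themselves, the level of Srebf2 was above that of Srebf1. Srebf2 (ENSMUSG00000022463, chr15:82031382-82093201), whose product mainly drives cholesterol genes, reached a mean normalized count of 10722, with a level of 401 ppm. Srebf1 (ENSMUSG00000020538, chr11:60089913-60113407), whose product mainly drives fatty acid genes, had a count of 2913 and a level of 173 ppm. Srebf2 thus held 69.9% of the summed level of the pair. Scap, the escort of both proteins, had a count of 1045 and a level of 28.6 ppm. Insig1, a retention protein that is itself a SREBP target, had a count of 5773 and a level of 413 ppm. Insig2, the other retention protein, had a count of 556 and a level of 32.7 ppm, so Insig1 held 92.6% of the level of the 2 Insig genes. Mylip, a ubiquitin ligase that marks lipoprotein receptors for degradation, was the lowest regulator by count, at 317, with a level of 33.3 ppm. With the union of exons Insig1, Srebf2 and Srebf1 thus lay between 173 and 413 ppm and the other 3 regulators between 28.6 and 33.3 ppm. Per coding length that gap closed, with Srebf1 at 74.2 ppm, Insig2 at 71.4 ppm and Mylip at 20.5 ppm.

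The 17 enzymes from mevalonate to cholesterol had levels from 27.5 to 628 ppm, with a median of 151 ppm, and 12 of them had a count of at least 1000. Hmgcs1 (ENSMUSG00000093930, chr13:120151915-120170470), which makes hydroxymethylglutaryl-CoA at the entry of the pathway, had a count of 9472 and a level of 628 ppm, the highest of the 17 with the union of exons. With the other 3 lengths Msmo1 was above it, at 570 against 463 ppm with the canonical transcript, 733 against 526 ppm with the coding length and 447 against 391 ppm with windows found at no other place in the genome. The later steps up to isopentenyl diphosphate were much lower. Mvk, mevalonate kinase, had a count of 877 and a level of 27.5 ppm, the lowest of the 17 with the union of exons. With the canonical transcript, however, Idi1 (30.2 ppm) was below it (35.8 ppm). Per coding length Mvk was at 64.1 ppm, above Fdps (34.5 ppm), Tm7sf2 (37.2 ppm) and Idi1 (49.6 ppm). Pmvk, the next kinase, had a count of 1065 and a level of 97.01 ppm. Mvd, which decarboxylates the product to isopentenyl diphosphate, had a count of 1184 and a level of 151 ppm. All 3 were below Hmgcs1 with either length, while the order of the last 2 turned, since per kilobase of the canonical transcript Pmvk (892) was above Mvd (617).

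Idi1 and Fdps, which isomerize and join the isoprenoid units, had the lowest counts of the 17. Idi1 had a count of 390 and a level of 38.3 ppm, and Fdps a count of 422 and a level of 30.1 ppm. Both values are uncertain for the reason given with the sequences above, and the copies are counted further down. Fdft1, squalene synthase, the branch point towards sterols, had a count of 2943 and a level of 215 ppm.

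From squalene onwards most enzymes were high. Sqle, squalene epoxidase, had a count of 6357 and a level of 250 ppm. Lss, which closes the sterol rings to lanosterol, had a count of 6257 and a level of 192 ppm. Cyp51 (ENSMUSG00000001467, chr5:4123416-4154751), the lanosterol demethylase, had a count of 8113 and a level of 477 ppm. With the canonical transcript it was at 327 ppm, below Msmo1, Hmgcs1 and Sqle (454 ppm). Tm7sf2, a sterol reductase acting right after Cyp51, was low, with a count of 538 and a level of 38.2 ppm. The enzymes that remove the methyl groups at carbon C4 were between 208 and 292 ppm with the union of exons and between 132 and 570 ppm with the canonical transcript. Of these, Msmo1 had a count of 7436 and a level of 292 ppm. Nsdhl had a count of 2891 and a level of 274 ppm. Hsd17b7 had a count of 3049 and a level of 208 ppm. The last steps were lower again. Ebp, the sterol isomerase, had a count of 851 and a level of 72.7 ppm. Sc5d, a sterol desaturase, had a count of 1775 and a level of 101 ppm. Dhcr7, the reductase of 7-dehydrocholesterol, had a count of 1716 and a level of 73.1 ppm.

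**Figure D2:**
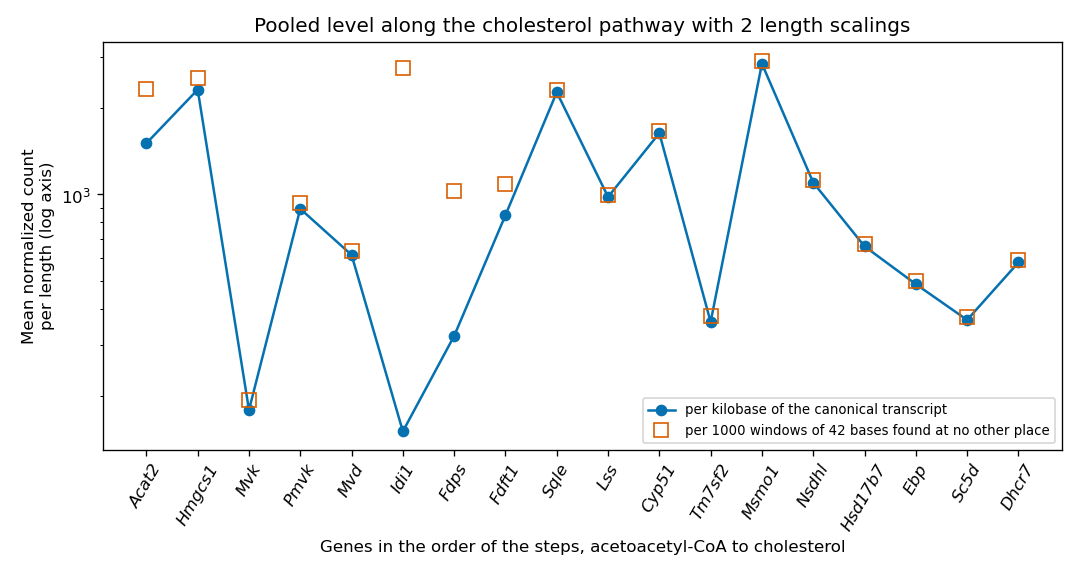
Mean normalized count per length (vertical log axis) of 18 genes in the order of the steps from acetoacetyl-CoA to cholesterol, with filled points per kilobase of the canonical transcript and open squares per 1000 windows of 42 bases found at no other place in the genome. The 2 scalings lie close together for most genes and far apart for Idi1 (151 and 2745) and Fdps (323 and 1028).

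Around this pathway, Acat2, the cytosolic thiolase that makes acetoacetyl-CoA, had a count of 4015 and a level of 239 ppm. Stard4, a carrier of cholesterol between membranes, had a count of 2953 and a level of 168 ppm. Soat1, which esterifies cholesterol for storage, had a count of 1450 and a level of 47.4 ppm. Of these 3 genes Soat1 was the lowest.

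The 5 genes that supply and polymerize acetyl units ranged from 2.25 to 556 ppm. Fasn (ENSMUSG00000025153, chr11:120696672-120715995), the fatty acid synthase, had a count of 18661 and a level of 556 ppm. Acly, which splits citrate to give cytosolic acetyl-CoA, had a count of 15851 and a level of 380 ppm. Acss2, which makes acetyl-CoA from acetate, had a count of 622 and a level of 11.0 ppm. Its union of exons (19789 bases) is far longer than its canonical transcript (3008 bases), with which its level was 41.4 ppm. Between the sources of cytosolic acetyl-CoA, Acly was therefore far above Acss2. Acaca, the cytosolic acetyl-CoA carboxylase that makes malonyl-CoA for synthesis, had a count of 2035 and a level of 38.6 ppm. Acacb, its paralog at mitochondria, whose malonyl-CoA limits fatty acid oxidation, was the lowest of all 40 members, with a count of 65.7 and a level of 2.25 ppm. Acaca held 94.5% of the level of this pair, and its own value is uncertain because of the copy described below.

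The desaturases and elongases had the highest median level of the 5 roles, 283 ppm, and all 9 had a count of at least 1000. Scd2 (ENSMUSG00000025203, chr19:44281613-44295303), a stearoyl-CoA desaturase, had a count of 69563 and a level of 3226 ppm. By count it ranked 6 among all 20624 genes and 3 among protein-coding genes, after Actb (107295) and mt-Co1 (73780). Scd2 alone held 29.5% of the summed level of the 40 members. Scd1 (ENSMUSG00000037071, chr19:44382894-44399154), which lies on the same chromosome beyond Scd4 and is the isoform best known from liver and fat, had a count of 5837 and a level of 283 ppm. Scd2 thus held 91.9% of the level of the pair. Of the other genes of this family in the table, Scd3 had a count of 0.929 and Scd4 a count of 35.7.

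The 3 Fads genes lie side by side on chromosome 19, between 10018253 and 10174241. Fads1, a front-end desaturase of polyunsaturated fatty acids, had a count of 10922 and a level of 681 ppm, the next member after Scd2 with the union of exons. Per kilobase of the canonical transcript, Acly (3594) came between Scd2 and Fads1 (3078). Fads2, which carries out the initial desaturation of the same route, had a count of 6078 and a level of 325 ppm. Fads3, a desaturase of sphingoid bases, had a count of 3856 and a level of 297 ppm. Fads1 held 52.3% of the level of the 3 genes.

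The elongases were lower than the desaturases, except that per coding length Elovl6 (511 ppm) was above Scd1 (475 ppm), Fads2 (395 ppm) and Fads3 (248 ppm). Elovl6, which extends palmitate to stearate, the substrate of the Scd enzymes, had a count of 4726 and a level of 194 ppm. Elovl5, which extends polyunsaturated fatty acids, had a count of 1384 and a level of 85.1 ppm. Elovl1, which makes very long saturated chains used in sphingolipids, had a count of 1240 and a level of 79.7 ppm. Elovl7 had a count of 1161 and a level of 70.9 ppm. Elovl6 held 45.2% of the level of the 4 elongases, and the other 3 lay between 70.9 and 85.1 ppm. With the canonical transcript the 3 spread out and changed order, with Elovl1 at 130 ppm, Elovl5 at 93.7 ppm and Elovl7 at 42.8 ppm.

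**Figure D3:**
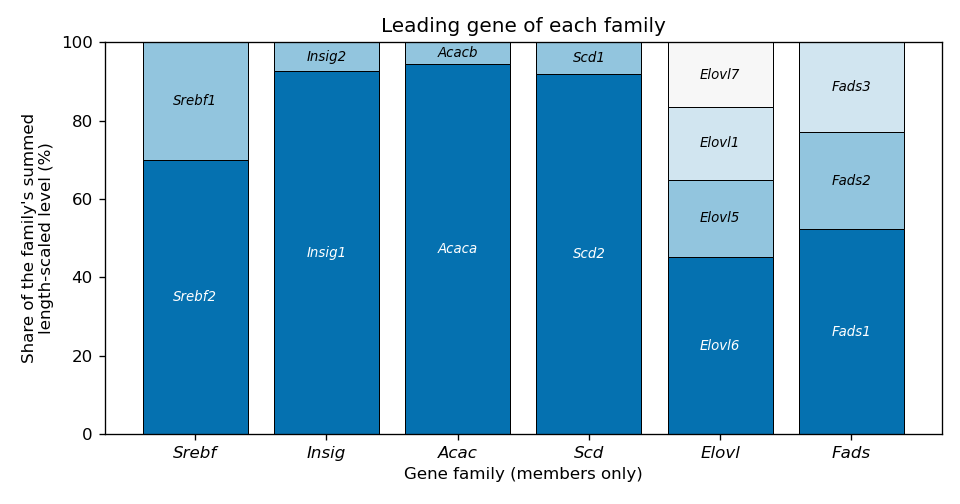
Share of the summed length-scaled level (vertical axis, %) held by each member of 6 gene families, 1 bar per family, with the leading gene at the bottom. In 3 families (Insig, Acac and Scd) the leading gene holds over 90% of the level, while Elovl6 holds 45.2% and Fads1 52.3%.

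Reads that map to several places are left out by the default settings of the counting program, so copies in the genome bear on a gene's count. Every stretch of 42 bases of each canonical transcript was therefore searched for in GRCm39. The median share of windows that also occurred elsewhere was 1.31% for the members and 1.24% for all genes. Of the members, 6 had a share of at least 20%, and 14.5% of all genes did. Idi1 had a share of 94.4%, most of it in Idi1-ps1 on chromosome 2 (94.0% of its windows), a copy with a mean normalized count of 3.67 of its own. Another pseudogene, Idi1-ps2 on chromosome 5, held 26.4% of the same windows. Acaca had a share of 68.7%, with 68.2% of its windows in the processed pseudogene Gm5182 on chromosome 12, which had a count of 278. Fdps had a share of 67.6%, with 52.4% of its windows in Gm3571 (count 13.5) and 24.4% in Gm5873 on chromosome 6 (count 6.41). Smaller shares of Fdps lay in Gm8163 on chromosome X (15.1%, count 1.42) and Gm7979 on chromosome 13 (12.3%, count 1.62). Insig1 had a share of 36.8%, in Gm37784 on chromosome 3 (count 21.3). Acat2 had a share of 34.0%, nearly all in a stretch of chromosome 17 that holds its protein-coding neighbour Acat3 (count 8.21) and overlaps Tcp1. Fdft1 had a share of 21.1%, nearly all in Gm6781 on chromosome 14 (count 7.39). The other 34 members had shares under 10%, among them Elovl6, with 8.86% of its windows in a stretch of chromosome 13 that holds Gm11295 (count 75.03), and Hmgcs1, with 7.74% in a stretch overlapping Baz1a on chromosome 12.

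Dividing the count by the number of windows found at no other place, in place of the whole canonical transcript, moved these members up. Per kilobase of the canonical transcript, Idi1 had a count of 151 and ranked 38 of the 40 members. Per 1000 such windows it had 2745 and ranked 6, a value that rests on only 142 of its 2549 windows. Fdps went from 323 to 1028 and from rank 30 to rank 18. Acaca went from 214 to 687 and from rank 32 to rank 22. Insig1 went from rank 8 to rank 3 and Acat2 from rank 12 to rank 8. Scd2, Acly and Acacb kept ranks 1, 2 and 40. A pair of reads is longer than 1 window, so a pair with 1 end in a unique stretch may still have been placed. How many reads were in fact left out was not tested.

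**Figure D4:**
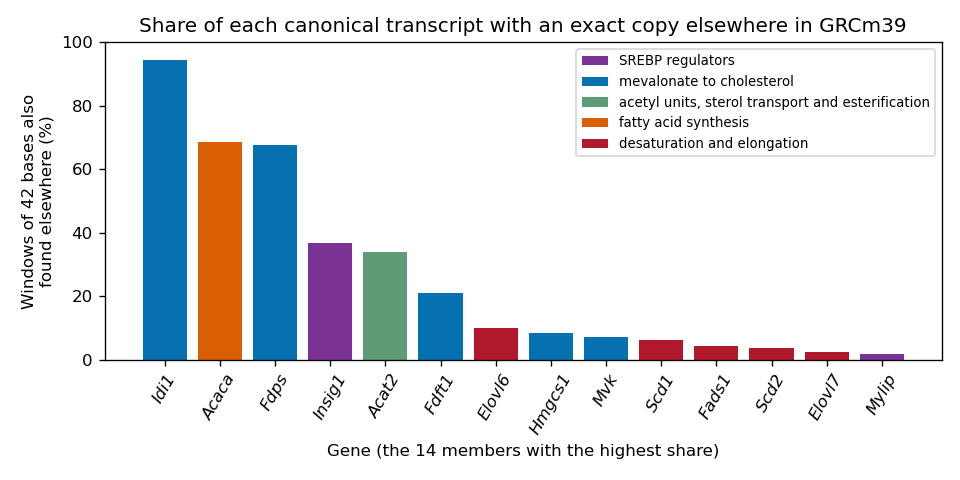
Share of the 42-base windows of the canonical transcript that also occur elsewhere in GRCm39 (vertical axis, %) for the 14 genes with the highest share, coloured by role. The bars fall from 94.4% for Idi1 to 21.1% for Fdft1, and the genes after Fdft1 are all under 10%.

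Exons of genes on the opposite strand also overlapped some members. Exons of Ctsb, with a count of 3763, covered 24.8% of the exon bases of Fdft1. Exons of Akap9, with a count of 2079, covered 21.1% of those of Cyp51. On the same strand, exons of Vps51, with a count of 69.9, covered 10.8% of those of Tm7sf2. Reads from stretches shared on the same strand cannot be assigned to 1 gene, nor can those on the opposite strand unless strand was used in counting, for which only default settings are stated. The values of Fdft1, Cyp51 and Tm7sf2 are uncertain to that extent, as are those of other members that share exon bases. In all, 16 members shared some with a gene of the table, and 4 shared over 10%. The latter include Hmgcs1, with 10.6% covered by exons of Gm48342 (count 3.34). Smaller shares include Acss2 with Gss (7.64%, count 578) and Acat2 with Tcp1 (5.48%, count 7912).

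RefSeq promoter windows, from 250 bases before to 50 bases after the start of a transcript, were given for 33 members, not for Scd1, Scd2, Fads1, Fdft1, Sqle, Fdps and Stard4. The sterol regulatory element was searched as TCACNCCAC on both strands. It occurred in 1 of the 33 members (3.03%), Hmgcs1, and in 1.44% of all genes with a promoter window. The shorter form CACNCCA occurred in 9 members (27.3%) and in 20.6% of all genes. These elements vary in sequence, and other forms were not searched. The CCAAT box, searched as CCAAT, occurred in 27 members (81.8%), against 43.0% of the protein-coding genes of the table and 43.2% of those with a count of at least 1000. The GC box, searched as GGGCGG, also occurred in 27 members (81.8%), against 67.7% and 77.5% of the same genes. Both boxes occurred in 23 members, and in 29.2% of the protein-coding genes of the table. These shares are a description of chosen genes and were not tested. The promoter of Hmgcs1 is shown because it holds all the motifs, with the matches in capitals, from 250 bases before its start to the base before it (chr13:120151637-120151886 of GRCm39, plus strand, upstream of the annotated transcripts).
Hmgcs1: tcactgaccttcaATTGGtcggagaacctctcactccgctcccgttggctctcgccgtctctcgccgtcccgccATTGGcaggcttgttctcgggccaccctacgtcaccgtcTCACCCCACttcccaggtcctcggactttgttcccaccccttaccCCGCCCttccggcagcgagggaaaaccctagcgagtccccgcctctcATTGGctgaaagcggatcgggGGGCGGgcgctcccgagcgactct
The match to the sterol regulatory element, printed TCACCCCAC, begins 137 bases before the start. The CCAAT boxes, all on the reverse strand and so printed ATTGG, begin 237, 176 and 45 bases before it. The GC boxes begin 92 and 24 bases before it, the former on the reverse strand and printed CCGCCC.

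Of 56 further genes of lipid metabolism listed beside the members, 51 were in the table, with a median count of 987 and a median level of 51.0 ppm. The remaining 5 (Faxdc2, Thrsp, Elovl2, Elovl3 and Mogat2) were not analysed here. Cyb5b and Cyb5r3, which pass electrons to sterol and fatty acid desaturases, were at 439 and 334 ppm. Tecr, the enoyl reductase of the elongation cycle, was at 454 ppm. Among SREBP processing genes, Mbtps1 and Mbtps2, the proteases that free SREBPs, were at 159 and 23.9 ppm. Nr1h3, an oxysterol receptor that switches on Srebf1 in liver, was at 0.117 ppm, while Nr1h2, the other oxysterol receptor listed, was at 61.7 ppm. Soat2, the paralog of Soat1 known from liver and intestine, was at 0.514 ppm. In glycerolipid synthesis, Dgat1 was at 37.2 ppm and Dgat2 at 3.23 ppm. The 8 glycerolipid genes had a median of 22.7 ppm, the lowest of the 6 groups of further genes, and only 1 of them had a count of at least 1000.

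The label of the cells was compared with markers. Of 6 markers of the distal convoluted tubule, only Trpm6 (29.6) and Klhl3 (5.70) were in the table, both with mean normalized counts under 100, and Slc12a3, the defining cotransporter of the segment, was not among its genes. All 5 markers of the proximal tubule were in the table, with Aqp1 at 11355 and Lrp2 at 8826, but Slc34a1 at 2.04 and Slc5a2 at 2.77. Of 5 epithelial markers, Epcam was at 115, Krt8 was at 0.980, and Cdh1, Krt18 and Krt19 were not in the table. Of 4 fibroblast markers, Vim, which cultured cells of many types express, was at 17450, Col1a1 at 201, Pdgfra at 4.12 and Col1a2 at 2.71. None of the 3 markers of liver and fat cells (Alb, Adipoq and Plin1) was among the genes of the table, and the leukocyte marker Ptprc was at 5.36. The levels above therefore describe mDCT15 cells in culture, a line in which most markers of the labelled segment were low or not listed.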

How the data were processed

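RNA sequencing of mDCT15 cells covered 3 wild type and 3 Pkd1-/- samples, grouped by their titles. Per the methods and the submitters' processing notes, the authors depleted ribosomal RNA, sequenced paired reads of 42 bases, trimmed them with Trim Galore 0.4.5, mapped them with STAR 2.7.5a to GRCm39, counted them per gene with HTSeq 0.11.0 at default settings and ran DESeq2 1.22.0 in R 3.5.3, with at least 5 counts required of each gene in a sample. The deposited signal used here is the authors' mean normalized count, over all 6 samples together. Its lowest value was 0.618, so the genes used here were not limited to those with at least 5 counts in every sample. How the stated cutoff was applied is not given, and the count of a gene that is not listed is not known. The 5 other numeric columns hold the authors' own comparison of the genotypes (log2 fold change, its standard error, test statistic, p-value and adjusted p-value) and were not used, so no test was run. Depth per sample and replicate spread were not analysed here.

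Identifiers were matched to GENCODE vM39 on GRCm39, in which 20122 of 20624 were found. The 502 others, which hold 9.12% of the summed count, have no level. Levels used the 19893 genes with a length of at least 100 bases. Windows of 42 bases of canonical transcripts were searched on both strands of GRCm39. Promoters came from RefSeq on GRCm38.p6 and were placed in GRCm39 by exact match. Copies that hold at least 5% of a member's windows are named. Alternatives changed the gene length, the genes ranked among, the treatment of repeated symbols, the motif and its window. Functions were tested on simulated data. The members and lists were chosen with earlier results of these data known. All 40 members are named, with at most the 3 highest and 3 lowest per role of the further genes, the markers and, in addition, Nr1h2. Some of the further genes are not reported here. Windows, overlapping exons and the genes ranked by count were chosen after seeing the data. Python 3.11.15, numpy 2.4.6, pandas 2.3.3, numba 0.67.0 and matplotlib 3.10.9 were used.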

Additional observations from a re-analysis of the deposited data

How the results depend on the processing

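The number of members above the median of all genes was 39 of 40 and stayed between 35 and 39 under the 7 alternatives: 38 among protein-coding genes, 37 and 38 among genes with a mean normalized count of at least 10 and 5, 39 with the identifiers of a symbol summed, and 39, 35 and 39 with the canonical transcript, the coding length and the windows found at no other place as the length. The median level of the members was 170 ppm with the union of exons, 134 ppm with the canonical transcript, 188 ppm with the coding length and 138 ppm with such windows. In each of the 6 families the same gene led under all 4 lengths. With the canonical transcript, the coding length and the windows, its share was 75.9%, 78.7% and 75.8% for Srebf2, 91.4%, 90.01% and 94.3% for Insig1, 96.7%, 97.0% and 98.9% for Acaca, and 36.7%, 57.3% and 38.7% for Elovl6. For Fads1 it was 51.6% with the canonical transcript. The number of members with a sterol regulatory element was 1 in both windows searched and 9 with the shorter motif. The lengths by windows, and the 3 other lengths for the count of members above the median, were chosen after seeing the data. No paired analysis was possible because the values used were pooled over the samples, and for the same reason other size factors, no low-count filter and leaving out each replicate, all planned for a comparison of the genotypes, were not run.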
